A study of Arabidopsis thaliana with 3 samples.

Results

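The chloroplast-encoded genes described here are the 133 rows of the count table whose identifier starts with ATCG, out of 32833 rows in all, and 112 of them had a read in at least 1 cell. They were read across 322 wells with 500 or more detected genes, which are called cells here. The cells were protoplasts from Columbia-0 (Col-0) seedlings of Arabidopsis thaliana at 5 days after germination, sorted for nuclear mCherry driven by the HB53 promoter (pHB53:NLS-3xmCherry), a signal the labels take to mark lateral root primordia at stages I to IV. All cells carry this reporter, and the study has no second genotype, treatment or time. Each column is 1 plate well, and the wells came from 6 plates on 3 flow cells. GEO's labels give 3 replicates without saying which wells belong to each, so all cells count as 1 sample. No result below has replicate error or a test, and values for each flow cell stand in their place. Intervals are 95% intervals that take the cells or wells as independent draws. They are exact (Clopper-Pearson) for shares of cells or wells and come from the ranked values for medians. They do not measure spread between replicates.

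Plastids keep a small circular genome that encodes subunits of the photosystems, the cytochrome b6f complex, the ATP synthase and the NDH complex, the large subunit of Rubisco, part of the plastid ribosome and RNA polymerase, and ribosomal and transfer RNAs. Many of these genes lie in operons and are transcribed together, and a large inverted repeat holds some of them in a pair of copies. Root cells contain non-green plastids, which keep this genome and express it at low levels. Nuclear genes supply the other subunits, the sigma factors and accessory proteins of transcription, the import machinery and the division ring.

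The count table gives the plastid genes as identifiers only, and the gene table of the reference (RefSeq, TAIR10.1) lists its 129 plastid genes under other tags, none in the ATCG form. Notes in that annotation name 6 of the 133 members. These are ATCG00670, the plastid-encoded proteolytic subunit of the Clp protease, ATCG00750, ribosomal protein S11 of the small subunit, ATCG00660 and ATCG01310, ribosomal proteins L20 and L2 of the large subunit, ATCG00530, a CemA-like proton extrusion protein, and ATCG00430, noted as photosystem II reaction center protein G, an old name for a product since assigned to the NDH complex. The other members are given by identifier, without a name or role. Gene lengths were not used, so a share of reads below describes what the plastid reads consisted of and does not rank transcripts by abundance.

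Plastid reads made up a small part of most cells and a large part of a few. Their share of all reads in a cell had a median of 0.420% (0.349 to 0.462), with quartiles of 0.243% and 0.660% and a highest value of 28.9%. The medians were 0.385%, 0.457% and 0.433% on flow cells 1, 2 and 3, each inside the interval for all cells. Across the 6 plates the median ranged from 0.275% to 0.504%. At least 1% plastid reads were found in 50 of 322 cells, above 5% in 10 cells, and 6 cells had no plastid read at all. Summed over cells, 544072 reads were plastid, or 0.508% of all reads. A cell had a median of 1081 plastid reads, from 478 at the lower to 2136 at the upper quartile.

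The high shares were found in cells with few detected genes. The highest cell, on flow cell 2, held 13643 plastid reads from 64 members and 604 detected genes in all. The next, on flow cell 1, stood at 22.7% with 76 members and 1024 detected genes. Of the 10 cells with the highest share, 9 had between 565 and 1145 detected genes, against a median of 4009 over all cells, and the other had 3628. In the 9 cells with 500 to under 1000 genes the median share was 5.28%, with a range from 0% to 28.9%. In the 33 cells with 1000 to under 2000 genes it was 0.757%, and in the 56 with 6000 or more it was 0.344%. The Spearman correlation of plastid share with gene number was -0.286, -0.169 and -0.175 on the 3 flow cells, over 102, 96 and 124 cells, and with total reads -0.450, -0.327 and -0.420. The total is the denominator of the share, so these 2 measures are not independent.

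**Figure D1:**
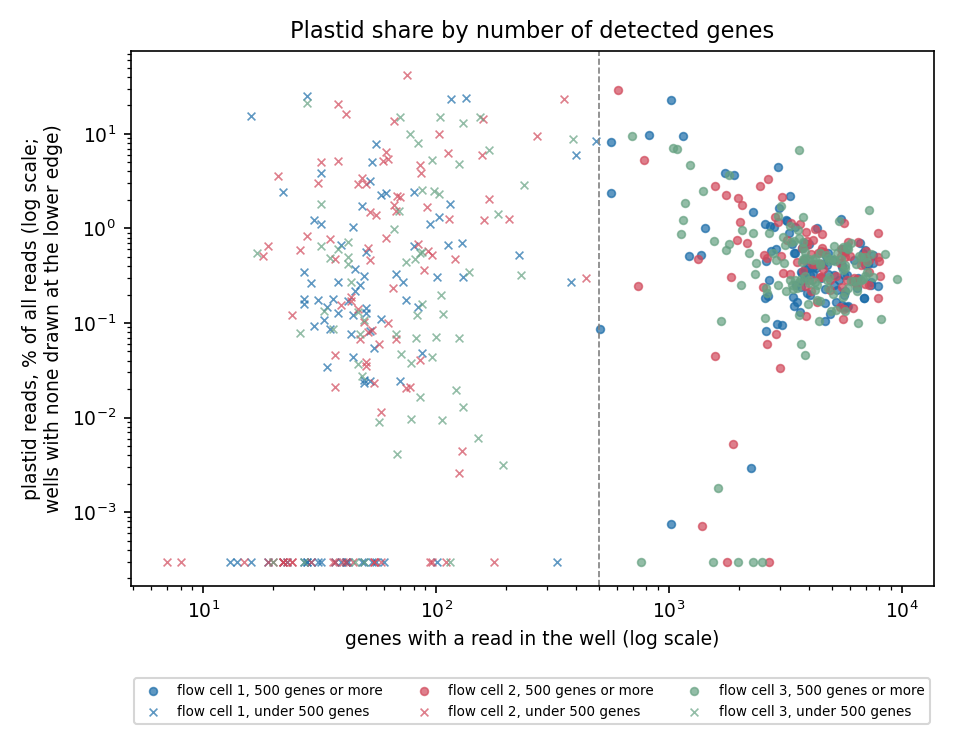
Plastid reads as a percentage of all reads (vertical axis, log scale) against the number of genes with a read (horizontal axis, log scale) for the 322 cells and the other 251 wells, coloured by flow cell. Circles are cells and crosses wells under 500 genes; the dashed line marks 500 genes, and wells with no plastid read are drawn at the lower edge. Cells with 6000 or more genes lie around 0.344%, while 9 of the 10 cells above 5% have between 500 and 2000 genes; a further 33 wells above 5% lie under 500 genes.

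The mitochondrial share of a cell's reads moved with its plastid share. The median mitochondrial share was 1.99% of a cell's reads, and its Spearman correlation with the plastid share was 0.596, 0.621 and 0.561 on the 3 flow cells. Both shares have the same total as denominator and are not independent. In the wells under 500 genes the correlation was 0.107, 0.361 and 0.230. The summed plastid reads were 0.135, 0.319 and 0.235 of the summed mitochondrial reads on flow cells 1, 2 and 3. This ratio was lowest on flow cell 1, where the median mitochondrial share was 2.94%, against 1.49% and 1.70%.

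The 251 wells with under 500 genes, which hold little captured nuclear RNA, show the plastid reads found without a well-sampled cell. Their median plastid share was 0.175% (0.122 to 0.312), on a median of 3922 reads, and 53 of them had no plastid read. The spread was wide, from 0% to 41.8%, and 33 of these wells exceeded 5%. In 8 such wells 40 or more plastid members were detected beside 36 to 390 nuclear genes, with plastid shares of 8.48% to 23.7%. One of them, on flow cell 1, held reads of 62 plastid members and of only 52 nuclear genes, and 70.4% of its reads were mitochondrial. At the threshold itself, the 3 wells just below it had 397, 439 and 486 genes and plastid shares of 6.02%, 0.303% and 8.48%. The 3 cells just above it had 506, 561 and 565 genes and shares of 0.0854%, 2.35% and 8.21%, so wells on both sides of the limit overlapped.

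Members differed widely in how often they were detected. A read was found in 80% of cells or more for 16 members, in 50% or more for 55 and in 10% or more for 96 of 133. A cell had reads of a median of 54.5 members, from 0 to 89. This number rose with the plastid reads of the cell, from a median of 28.5 members at 20 to under 200 reads to 76 members at 5000 reads or more. In the wells under 500 genes ATCG01130, the member found in most cells, had a read in 24.7%, against 96.3% (93.6 to 98.1) of cells, at median depths of 3922 and 245742 reads. ATCG00950 went the other way, with a read in 44.6% (38.4 to 51.0) of these wells, the highest of any member, and in 22.0% (17.6 to 27.0) of cells. Its share of cells varied by flow cell, at 39.2%, 22.9% and 7.26% on flow cells 1, 2 and 3. The wells under 500 genes were not split by flow cell for this member. It had 755 reads in the wells under 500 genes and 125 in cells. Of the 133 members, 6 were found in a larger share of these wells than of cells. The next by reads was ATCG01180, with 97 reads against 30, in 17.9% (13.4 to 23.2) of these wells and 7.14% (4.58 to 10.5) of cells. For the rest, ATCG00905, ATCG00920, ATCG01210 and ATCG01300, the intervals overlapped.

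Among the members named in the annotation, the Clp protease subunit ATCG00670 was found in 88.5% (84.5 to 91.8) of cells, and in 90.2%, 89.6% and 86.3% on flow cells 1, 2 and 3. It took a mean of 2.08% ± 3.62 (SD over 309 cells with at least 20 plastid reads) of a cell's plastid reads. Ribosomal protein S11 (ATCG00750) was found in 85.7% (81.4 to 89.3) of cells with a mean share of 2.84% ± 2.75. Both were detected in most cells of each flow cell. Ribosomal protein L20 (ATCG00660) was found in 58.7% (53.1 to 64.1) of cells, with 74.5%, 57.3% and 46.8% on the 3 flow cells. The CemA-like gene ATCG00530 was found in 53.1% (47.5 to 58.7), with 68.6%, 59.4% and 35.5%. ATCG00430 was found in 49.4% (43.8 to 55.0), with 59.8%, 42.7% and 46.0%. For these last 3, flow cell 1 had the highest share of cells with a read; median reads per cell were 408532, 440181 and 132330 on flow cells 1, 2 and 3, so flow cell 3 was the shallowest.

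The 12 members with the highest mean share accounted for 53.3% of a cell's plastid reads on average, with 50.7%, 54.6% and 54.5% on flow cells 1, 2 and 3. ATCG00480 led with a mean of 9.37% ± 7.31 (SD over 309 cells) and was detected in 90.7% of cells. ATCG01130 followed with 8.22% ± 7.60, a median of 6.82% and a highest value of 88.8%. For ATCG00480 the means on flow cells 1, 2 and 3 were 10.5%, 7.72% and 9.72%. For ATCG01130 they were 4.38%, 14% and 6.86%, so flow cell 2 stood above the others for this member. The SD over cells was of the size of the mean for both. ATCG00170 (5.42%), ATCG00340 (4.53%), ATCG00740 (4.01%) and ATCG00120 (3.72%) came next. ATCG00800, ATCG00790, ATCG00810, ATCG00750, ATCG00350 and ATCG00020 had mean shares of 3.48% to 2.33%. Some of these also differed between flow cells: ATCG00790 took 2.03%, 2.88% and 5.01%, and ATCG00120 took 5.21%, 2.68% and 3.29%.

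**Figure D2:**
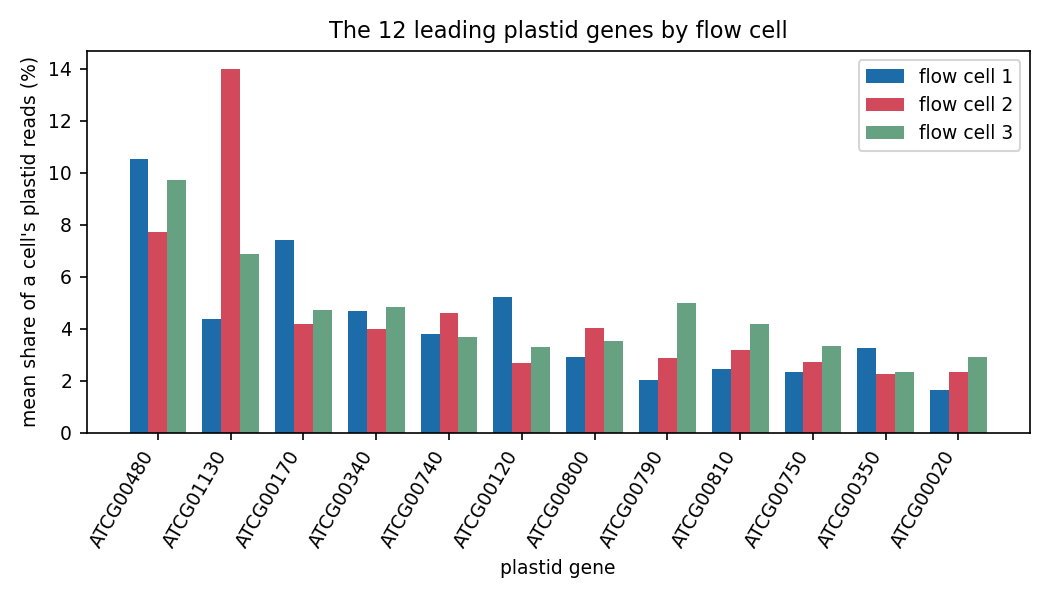
Mean share of a cell's plastid reads, in percent, for the 12 leading plastid genes, with 1 bar for each flow cell and no error bar (the SD over cells is in the text). ATCG01130 stands at 14% on flow cell 2 against 4.38% and 6.86% on the others, while ATCG00480 lies between 7.72% and 10.5%.

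Which member led differed from cell to cell. ATCG00480 was the largest member in 94 and ATCG01130 in 70 of the 309 cells, and 25 members led in at least 1 cell. The largest member took a median of 14.9% of a cell's plastid reads, from 11.9% at the lower to 18.8% at the upper quartile. In 5 cells a single member exceeded 50%. ATCG01130 took 88.8% of 170 plastid reads in a cell of flow cell 2, and ATCG00340 took 86.4% of 2906 in a cell of flow cell 3. The other 3 were led by ATCG01050, ATCG00020 and the Clp subunit ATCG00670, with 99, 27 and 484 plastid reads. Apart from the cell with 2906 reads, these cells lay below the median of 1159 plastid reads.

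The plastid reads of the wells under 500 genes were shared out differently among the leading members. Together the same 12 took 53.0% of their summed plastid reads, against 52.4% in cells. ATCG00480 took 16.8% against 8.54%, ATCG01130 14.4% against 9.73%, ATCG00170 2.16% against 5.66%, and ATCG00120 1.26% against 3.57%. Of the summed plastid reads of these wells, 27.4% came from 2 wells and 46.2% from 5, so the sums rest on few wells.

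Members without reads were concentrated in 2 runs of identifiers, chosen after the values had been seen. Of 19 members from ATCG00830 to ATCG01000, 10 had no read in any cell, and of 18 members from ATCG01140 to ATCG01310, 11 had none. The other members of these runs had at most 125 reads (ATCG00950) and 30 reads over all cells. Each of the 96 members outside the runs had a read, with a median of 2624 and a lowest value of 16. Ribosomal protein L2 (ATCG01310), inside the second run, had 8 reads in 2.48% (1.08 to 4.84) of cells. The reference lists rpl2 at 2 places in the plastid genome, and 7 protein-coding plastid symbols in all are listed there 2 times. Reads of near-identical copies cannot be assigned with certainty, and the sources used here do not give the counting rule. For a member with no read in 322 cells, a read would be found in at most 0.932% of such cells at a limit of 3 counts, or 1.14% by the exact interval. This limits the reads counted for that row at this depth and not the cells that hold the transcript.

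Within the plastid reads of a cell, members with neighbouring identifier numbers varied together. For 78 members with a read in at least 30% of the 309 cells, the Spearman correlation of their shares was computed within each flow cell, over 99, 93 and 117 cells, and the median of the 3 values was taken. Of 3003 pairs, 31 exceeded 0.4, and 25 of these were next to each other in number among the 78. Of the 20 highest pairs 19 were next in number, and the exception, ATCG00230 with ATCG00250, was 2 steps apart. Over all 77 pairs of neighbours the median correlation was 0.278, with 0.262, 0.374 and 0.209 on flow cells 1, 2 and 3. It was 0.158 at 2 steps, 0.0945 at 3 steps and 0.0651 at more than 5 steps. The shares of all members come from the same plastid reads of the same cells and sum to 100%, and members share cells, so these values are a description. The sources used here do not say whether a read that spans neighbouring genes was counted for more than 1 of them.

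**Figure D3:**
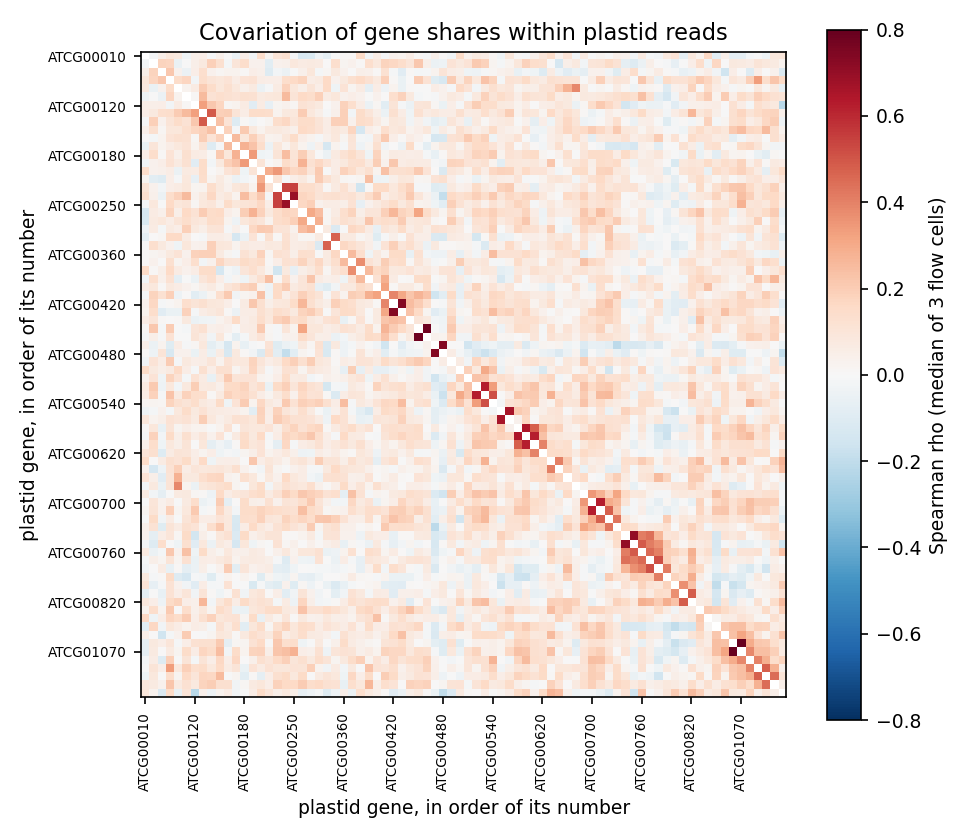
Spearman correlation (colour, median of 3 flow cells) between the shares of 78 plastid genes within a cell's plastid reads, with genes on both axes in order of identifier number and the diagonal left blank. The colour scale ends at 0.8, so the pair at 0.842 has the end colour. High values lie along the diagonal, in 15 runs of neighbours above 0.4, and the highest value more than 5 steps from it is 0.383.

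**Figure D4:**
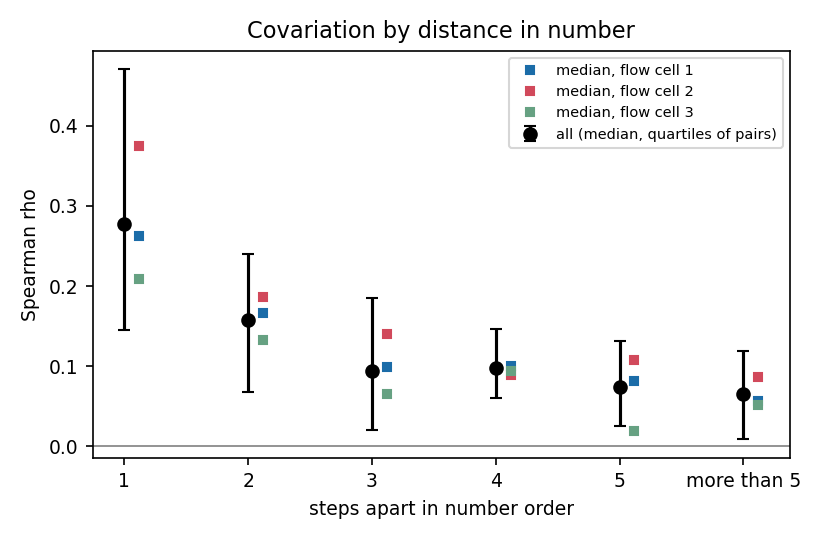
Spearman correlation (vertical axis) by the number of steps between 2 plastid genes in identifier order (horizontal axis). Black points are medians and bars the quartiles over pairs of the 3-flow-cell median; squares are medians for each flow cell. The median falls from 0.278 at 1 step to 0.0651 beyond 5 steps.

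The closest pair was ATCG01060 and ATCG01070, with correlations of 0.855, 0.842 and 0.760 on the 3 flow cells. They had 3751 and 2371 reads and were found together in 152 cells, while 29 cells had only the former, 9 only the latter and 132 neither. Their read ratio was 1.53, 1.43 and 2.27 on flow cells 1, 2 and 3. ATCG00420 and ATCG00430 (0.733, 0.771 and 0.633) were found together in 121 cells, with a read ratio of 0.537, 0.50 and 0.403. The leading member ATCG00480 varied with ATCG00470 (0.733, 0.770 and 0.512), and both were present in 281 of 322 cells. ATCG00470 had 0.195, 0.230 and 0.177 times the reads of ATCG00480 on the 3 flow cells. Ribosomal protein S11 (ATCG00750) varied with ATCG00740 (0.590, 0.792 and 0.702), and the pair shared 268 cells.

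Neighbours linked by correlations above 0.4 formed 15 runs that held 40 of the 78 members, 9 of them pairs. The longest ran over 6 members, from ATCG00740 to ATCG00790, and includes S11. It took a mean of 13.2% ± 8.71 of a cell's plastid reads, and at least 1 of its members was found in 94.4% of cells. On flow cells 1, 2 and 3 its mean share was 10.5%, 13.5% and 15.3%. ATCG00470 and ATCG00480 together took 11.1% ± 8.19. ATCG00340 and ATCG00350 took 7.14% ± 7.89. The CemA-like gene ATCG00530 lay in a run from ATCG00520 to ATCG00540 with 2.05% ± 2.58. All 15 runs together took 49.4%. Far from the diagonal, the highest value joined ATCG00065 and the Clp subunit ATCG00670, which lie 48 steps apart in number (0.435, 0.383 and 0.329 on the 3 flow cells).

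Most plastid members stayed within 2-fold between flow cells. With reads summed over the cells of a flow cell and scaled by the trimmed mean of M values, 88 of 133 members were measured (at least 10 reads in at least 5 cells), and the other 45 were not. Of the 88, 20 (22.7%) differed by more than 2-fold between some pair of flow cells, against 45.1% of all 16094 measured genes. From flow cell 1 over 2, 3 members were higher and 10 lower, with backgrounds of 13.3% and 15.3% and a median log2 ratio of -0.24 for members and -0.01 for all genes. From 1 over 3, 7 were higher and 2 lower (backgrounds 12.4% and 13.5%, median 0.04 for members and 0.03 for all genes). From 2 over 3, 8 were higher and none lower (backgrounds 13.1% and 12.5%, medians 0.26 and 0.04). The 3 ratios share flow cells and are not independent. Members passing the read minimum are the more abundant ones, and measured genes in general include many found in few cells. The same ratios for the 50 measured mitochondrial genes had medians of 1.01, 0.91 and -0.11.

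The 5 members with the largest range over flow cells had few reads. ATCG00220 had 2.68, 8.04 and 0.870 CPM (reads scaled to a common total) on flow cells 1, 2 and 3, and was found in 46.1%, 58.3% and 5.65% of cells. Its log2 ratio of flow cell 2 over 3 was 3.24 after scaling. ATCG00590 had 3.63, 14.2 and 1.86 CPM, ATCG00510 had 3.79, 6.0 and 1.33, and ATCG00390 had 2.68, 12.7 and 5.11. All of these were highest on flow cell 2. ATCG00330 went the other way, with 12, 2.85 and 5.40, highest on flow cell 1. Single cells gave part of this: 1 cell held 24.8% of the ATCG00220 reads and 1 cell 31.2% of the ATCG00590 reads of flow cell 2. Among abundant members ATCG01130 stood out, with 218.9, 842 and 407 CPM.

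At least 1 nuclear gene of the green tissue list was read in 59.6% (54.0 to 65.0) of cells and 2 or more in 30.7%, but most single genes were read in few cells. The green tissue list holds 24 genes, among them Rubisco small subunits, light-harvesting proteins and photosystem subunits, and 1 of them had no read in any cell. RBCS1A, a small subunit gene of Rubisco, was found in 7.76% of cells, the light-harvesting gene CAB1 in 4.66% and LHCB4.1, another light-harvesting gene, in 18.6%. At least 1 of 3 defining green markers (RBCS1A, CAB1 and the carbonic anhydrase CA1) was found in 12.1% (8.76 to 16.2) of cells and 2.39% of wells under 500 genes. Of 7 lateral root primordium markers, at least 1 was found in 90.1% (86.3 to 93.1) of cells and 2 or more in 73.9%. For other root tissues the share of cells with at least 1 marker was 73.3% for vascular precursors, 42.5% for pericycle, 23.6% for phloem, 15.2% for endodermis and 4.66% for epidermis and root hairs. Green tissue reads and plastid reads were nearly unrelated in rank: the Spearman correlation of green tissue share of nuclear reads with plastid share was -0.014, 0.043 and 0.058 on the 3 flow cells.

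The cell with the most green tissue reads had almost no plastid reads. On flow cell 1, a cell with 134302 reads and 1019 genes held 13354 green tissue reads from 20 of the 24 genes, which is 9.94% of its reads and 47.9% of all green tissue reads in the cells. Its 1 plastid read, a share of 0.000745%, was of ATCG00950, a member found in a larger share of wells under 500 genes than of cells. Its mitochondrial share was 3.25%. A cell of flow cell 3 with reads of 19 green tissue genes had 795 such reads (1.99% of its total) and a plastid share of 6.84% from 66 members. The other 3 cells among the 5 with the most green reads had reads of 8 to 11 green tissue genes and plastid shares of 0.112% to 1.15%. These cells were picked for their green tissue reads, so only their plastid values are free of that choice.

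To ask which nuclear genes moved with the plastid share, the cells of each flow cell were divided into 3 equal classes by this share, and nuclear reads were summed over the upper and the lower class (107 cells each). These classes had median plastid shares of 0.908% and 0.184%. They are ranges of a score and not cell types, with limits on flow cells 1, 2 and 3 of 0.550%, 0.577% and 0.544% for the upper and 0.253%, 0.309% and 0.277% for the lower. The upper class also had fewer detected genes (median 3223 against 4218), fewer reads (161440 against 354291) and a higher mitochondrial share (3.62% against 1.51%). The part of reads and mitochondrial share in the ratios below was not tested; for gene number, values with the classes formed among cells of like nuclear gene number are given beside the result. A gene is called higher or lower when it passed 2-fold in the same direction on all 3 flow cells. This held for 2.24% (higher) and 2.73% (lower) of 14485 measured nuclear genes, whose median log2 ratio was -0.12.

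Of 68 genes on 5 lists of nuclear genes for plastid functions, 47 were measured. None was called higher, against 2.24% of all measured nuclear genes, and 5 were called lower, against 2.73%. With so few members, a count of 0 is near the share over all genes and is no result about the lists. This holds for the 47 genes together and for each list below. Of 9 plastid division genes, all measured, 3 were lower, with a list median of -1.35: the division ring genes FTSZ2-1 (log2 -2.69, with -4.09, -1.89 and -1.79 on flow cells 1, 2 and 3) and FTSZ2-2 (-1.89), and MIND (-1.96), which places the ring. FTSZ2-1 was found in 9.35% of cells in the upper and 25.2% in the lower class, with 209 and 2292 reads. Of 16 measured plastid transcription genes, 2 were lower, with a list median of -0.24: the sigma factor SIG3 (-2.71) and HMR (PTAC12), a partner of the plastid-encoded polymerase (-3.02). No plastid import gene of 9 measured was called, with a list median of -0.69; CLPC1, a chaperone of the import machinery, stood at -0.69 and the receptor TOC159 at 0.20. Of the greening regulators only HY5 was measured, at -0.05. When the classes were formed among cells of like nuclear gene number, no list member was lower past 2-fold on every flow cell, these 5 included, against 1.86% of all genes.

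No member of the 12 measured green tissue genes was called in either direction, which is near the share over all genes for so few members. The list median was -3.74 on flow cell 1 but 2.09 and 1.38 on flow cells 2 and 3. The cell with 13354 green reads is in the lower class of flow cell 1. Without it, an alternative chosen after the values had been seen, the list median on flow cell 1 was 0.06. Of 10 measured members 2 were then called higher, against 325 of all 14458 measured genes. They were RBCS1A (1.46, 5.46 and 3.27) and the light-harvesting gene LHCA1 (1.18, 2.14 and 7.03). Over all cells RBCS1A was read in 25 and LHCA1 in 29, so these ratios rest on few cells. The other lists kept their counts without this cell. Among the marker genes of root tissues, only the phloem gene BRX was called, as lower, against 2.73% of all measured nuclear genes. With so few markers, 1 call is near the share over all genes and is no result about these tissues. BRX had 2 reads in the upper and 586 in the lower class, in 0.935% and 8.41% of their cells. Its ratio with classes of like nuclear gene number is not given here.

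**Figure D5:**
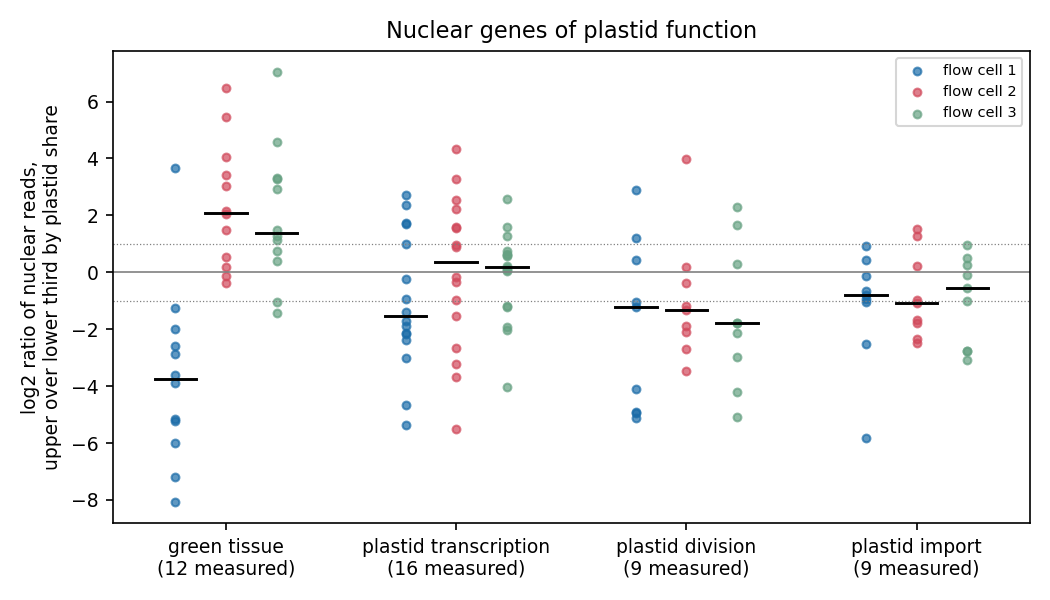
Log2 ratio of nuclear reads, upper over lower of 3 classes of cells by plastid share (vertical axis), for the measured genes of 4 lists of nuclear genes with plastid functions; each point is a gene on 1 flow cell, black bars are list medians and dotted lines mark 2-fold. Plastid division medians lie below -1 on each flow cell, while green tissue stands at -3.74 on flow cell 1 and above 0 on the other flow cells.

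The nuclear genes whose level followed the plastid share most closely were compared over all cells. Nuclear genes with a read in at least 30% of cells numbered 4966. The share of nuclear reads correlated positively with the plastid share on all 3 flow cells for 69 and negatively for 2797. Medians over genes were -0.139, -0.071 and -0.068 on flow cells 1, 2 and 3. The shares of a cell have a common total, so a rise in some genes lowers the others. The upper class also had fewer detected genes (median 3223 against 4218) and fewer reads (161440 against 354291) than the lower. The part of the common total and of depth in these counts was not tested. The 2797 are therefore not a count of genes with lower expression. The closest were AT3G41768 (0.550, 0.636 and 0.645) and AT2G01010 (0.540, 0.477 and 0.505), both annotated as cytosolic small subunit ribosomal RNA. AT3G41768 stood at 74931 CPM of nuclear reads in the upper and 33420 in the lower class. Next came AT2G07698 (0.372, 0.386 and 0.501), annotated as an F1 ATPase alpha subunit, the WD-40 repeat gene AT3G33530 (0.460, 0.455 and 0.296) and the DEAD/DEAH box helicase gene AT2G01440 (0.345, 0.287 and 0.313). Reads of ribosomal RNA genes and of genes with organellar copies may be shared between near-identical sequences. The share of AT3G41768 also correlated with gene number, at -0.398, -0.386 and -0.397.

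The lowest correlations were those of NAC102 (AT5G63790), a NAC transcription factor (-0.483, -0.369 and -0.370), and AT5G35735, annotated as an auxin-responsive family protein (-0.491, -0.352 and -0.310). WRKY22 (AT4G01250), a WRKY transcription factor, stood at -0.277, -0.270 and -0.278, the glycosyl hydrolase gene AT3G55430 at -0.289, -0.285 and -0.268, and AT2G45300, which encodes EPSP synthase of the plastid shikimate pathway, at -0.265, -0.291 and -0.263. NAC102 had 1312 CPM of nuclear reads in the upper and 2017 in the lower class. None of the 5 list members compared here was among the 200 genes with the highest values, out of 4966 compared. With so few members, a count of 0 is near the share over all genes and is no result about the lists.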

How the data were processed

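The authors deposited raw read counts for 32833 genes in 573 wells, as the values show (whole numbers with unequal totals), and a text file that links wells to raw files, from which flow cell and plate were read. Reads were single-end and 150 bp long, per the labels' protocols, and the submitters' processing notes name the build TAIR10. The sources used here do not give the aligner, the counting rule or the strand setting. They name no molecular identifiers, and PCR copies may count as reads. The cells kept have 500 detected genes or more (8315 to 1459543 reads). Wells with more than 1 cell were not removed. Flow cells 1 to 3 were read from raw file names. Whether they are technical batches only or follow the 3 labelled replicates is not known. P-values measuring spread between samples could therefore not be had, and no test was run.

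Ratios of summed counts used the trimmed mean of M values (30% of M, 5% of A), with sums of 0 set to a floor of 3 counts over the group, in Python 3.11.15 with pandas 2.3.3, numpy 2.4.6 and SciPy 1.17.1. The code of the ratio step was checked on counts drawn with sampling error only from a common mean profile with set changes. That of the correlation step was checked on normal noise with a set trend. Neither has the uneven detection between cells seen here, so these checks do not give the rate of false calls in these data. Named members were the 12 with the highest mean share, those with a name in the annotation notes, and the 5 with the largest range over flow cells; neighbour pairs and runs were chosen from their values. Named nuclear genes were the 5 highest and 5 lowest by the correlation nearest to 0 over flow cells, and list members called on all flow cells. Planned groups of members by role, rates per gene length, and the removal of ribosomal and transfer RNA could not be done, since most members have no name in the sources used here. The members and lists were chosen with earlier results of these data known.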

Additional observations from a re-analysis of the deposited data

How the results depend on the processing

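Of 62 alternative values, 46 stayed within the interval of the reported value or, for counts, within 1.5 times of it. Some of the 46 could not have changed. The 10 named nuclear genes were picked by correlations that had the same sign on all 3 flow cells. Leaving out a flow cell therefore had to return all 10. With thinned cells the count was also 10, for genes picked from the same cells. In place of the median plastid share of 0.420%, plastid reads summed over cells were 0.508% of summed reads. The share of the 12 leading members was 54.5%, 52.7% and 52.6% without flow cells 1, 2 and 3, and 52.4% for summed reads. The interval used for this share took single plastid reads, not cells, as independent draws. It is therefore narrow, and small shifts count as moved. Members past the fold between flow cells numbered 5 at 4-fold and 39 with no filter on low counts, against 20. Nuclear list members called higher, against 0, numbered 3 of 39 measured without flow cell 1 (5.42% of all genes) and 4 of 42 without flow cell 3 (6.19%). Beside 325 of all 14458 genes, 2 list members were called higher without the cell with most green tissue reads. Those called lower numbered 9 of 39, 9 of 42 and 10 of 42 without flow cells 1, 2 and 3 (6.97%, 7.11% and 8.28% of all genes), 2 when cells were split at the median share and 0 with classes formed among cells of like nuclear gene number, against 5. With a flow cell left out a gene has to pass on fewer flow cells, which raises these counts. Pairs of members above 0.4 numbered 20 among the 57 members read in 50% of cells, 16 of them next in number, against 31 and 25 among 78. The median share of wells under the gene minimum stayed between 0.157% and 0.251%. With cells thinned to 115851 reads, which left out 65 of 322 cells, the median plastid share was 0.380% and 93 members were read in 10% of cells. No paired analysis was possible because the wells carry no replicate number and the study has 1 group; leaving out replicates was not run for the same reason. Depth limits the members with few reads and the list genes found in few cells, whose sums often rest on 1 cell.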
